A study of Homo sapiens with 6 samples.

Results

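The genes described here encode 9 surface proteins that are used to sort or define stem-like cancer cells: CD44, CD24, PROM1, KIT, THY1, ENG, ROR1, NT5E and ALCAM. They were picked by name from the 62700 genes counted in each library, and all 9 were found by matching the Ensembl identifiers to gene symbols. The cells were OVCAR8, an established human ovarian carcinoma line labelled WT, and their total RNA was sequenced. Leptin cells received leptin, a hormone secreted by fat cells, at 100 ng/ml over 24 h, and control cells received PBS. No duration is labelled for the controls, so whether it matched that of leptin is not known. The treatment protocol places a night of serum starvation before leptin. There were 3 leptin and 3 control libraries, and the stated aim was to find downstream markers through which leptin maintains stemness. Whether replicates came from different cultures is not labelled, and p-values therefore cover only the spread among these libraries, possibly a technical one. All libraries come from bulk RNA of 1 cell line, so a change in the share of cells that carry a marker and a change in RNA per cell cannot be told apart.

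Cancer stem cells are cells of a tumour that can renew themselves and regrow it, and surface proteins are the usual handle for isolating them. In ovarian cancer, fractions positive for CD44, for CD44 together with KIT, for CD24 or for PROM1 (CD133) have been used in this way. THY1 (CD90), ENG (CD105) and NT5E (CD73) are also the classical positive markers of cultured mesenchymal stromal cells, and ALCAM (CD166) is commonly found with them. The 9 proteins do different work. NT5E is an ectoenzyme that turns AMP into adenosine, CD44 binds hyaluronan, CD24, THY1 and ALCAM take part in cell adhesion, KIT and ROR1 are receptors of the tyrosine kinase family, ENG is a co-receptor for TGF-beta and BMP ligands, and PROM1 is a pentaspan protein of membrane protrusions. A transcript level does not give the amount of protein on the surface.

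Promoter windows are shown for NT5E and CD44, whose transcripts were both lower in every leptin library than in every control library, and for PROM1, which had no count. The sequences are those of the RefSeq table for GRCh38.p14 and run 5′ to 3′ along the gene, from 250 bases before the start to 50 after it, 300 bases in all. The NT5E window lies at chr6:85449833-85450132 (plus strand) and the CD44 window at chr11:35138921-35139220 (plus strand). PROM1 has 4 listed windows, and the one shown, at chr4:16083680-16083979 (minus strand), has the highest CpG content of these. Capitals mark matches on either strand to the letters GGGCGG, which is the GC box, and to TTCNNNGAA (a STAT site). They likewise mark TGANTCA, the AP-1 site, and TGACGT, the core of the cAMP response element. The core of the hypoxia response element was searched as ACGTG, and the TATA box as TATAAA.
NT5E: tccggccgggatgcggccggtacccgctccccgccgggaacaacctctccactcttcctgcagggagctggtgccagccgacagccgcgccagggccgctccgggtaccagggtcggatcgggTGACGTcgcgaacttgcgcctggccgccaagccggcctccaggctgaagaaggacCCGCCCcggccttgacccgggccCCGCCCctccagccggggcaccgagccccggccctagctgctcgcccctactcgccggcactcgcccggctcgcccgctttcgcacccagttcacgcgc
CD44: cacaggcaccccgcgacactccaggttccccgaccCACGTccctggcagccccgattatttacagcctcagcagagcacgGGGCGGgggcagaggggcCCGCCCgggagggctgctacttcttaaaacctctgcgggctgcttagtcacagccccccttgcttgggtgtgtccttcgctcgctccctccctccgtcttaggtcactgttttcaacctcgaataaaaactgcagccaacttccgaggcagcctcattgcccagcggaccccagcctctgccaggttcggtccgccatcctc
PROM1: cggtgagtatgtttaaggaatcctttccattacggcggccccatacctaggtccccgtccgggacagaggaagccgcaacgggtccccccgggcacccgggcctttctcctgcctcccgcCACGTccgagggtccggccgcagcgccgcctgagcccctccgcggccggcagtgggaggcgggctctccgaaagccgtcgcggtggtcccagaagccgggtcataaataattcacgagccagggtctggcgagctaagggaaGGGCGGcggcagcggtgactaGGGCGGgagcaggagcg

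The NT5E window held 2 GC boxes and 1 TGACGT, and the CD44 window held 2 GC boxes and 1 ACGTG. The PROM1 window held 2 GC boxes and 1 ACGTG. Among 35116 promoter windows of this length, GGGCGG was found in 45%, TGACGT in 7.98% and ACGTG in 21.4%. No STAT site, AP-1 site or TATA box lay in these 3 windows, and those letters occur in 7.66%, 7.71% and 11.5% of all windows. Over the 13 windows of the 8 members in the table, TTCNNNGAA occurred once, in the window of ROR1, as TTCTGCGAA. Matches of letters are a description and not bound sites. The NT5E window has a GC content of 75% and a ratio of observed to expected CpG of 0.904, and the CD44 window has 63.3% and 0.626. For the PROM1 window these were 68.7% and 0.906, while the medians over all windows were 58.7% and 0.579. The ENG window had the lowest ratio of the 13, at 0.231, and THY1 had no entry in the table.

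Depth was 15609425 to 18577775 counts per library. CPM is a gene's count as a share of the scaled library total. Leptin replicate 1 differed from its group: the first principal component of log2 CPM, with 49.6% of the variance, placed it at -2.15, leptin replicates 2 and 3 at 46.3 and 39.6, and the controls at -31.0 to -23.6. Replicates of a tested gene had a median SD of 0.24 (log2 CPM) with leptin and 0.12 in controls. By edgeR's quasi-likelihood test with Benjamini-Hochberg adjustment over 15685 tested genes, 1538 passed an adjusted p of 0.05, of which 896 were higher and 642 lower with leptin. Without leptin replicate 1 the number was 4761. DESeq2 called 2250 genes, 1353 higher and 897 lower, and limma-voom called 1316, 700 higher and 616 lower. Fold changes also moved with transcript GC content, with a median log2 fold change of 0.30 among the 3050 most GC-rich tested genes and -0.13 among the 3050 least GC-rich. After removal of that trend 456 genes (2.91%) passed as higher and 417 (2.66%) as lower. Values without leptin replicate 1 are given beside the members and lists whose calls they change.

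Levels were first set side by side per length, as TPM, which divides each count by the gene's exon length before taking its share of the library, to separate absent from expressed genes. A gene counted as absent under 0.1 TPM in both groups, as low under 1 TPM in both, and otherwise as expressed. By this rule 7 of the 9 genes were expressed, THY1 was low and PROM1 was absent. CD24 stood highest, with a mean of 536 ± 280.2 TPM in leptin cells and 474 ± 50.4 TPM in controls (SD, n = 3 each). ALCAM followed with 222 ± 24.2 TPM in leptin cells and 239 ± 5.19 TPM in controls, and CD44 with 135 ± 26.5 and 187 ± 7.98 TPM in the same order of groups. These are high levels: averaged over all libraries, CD24 lay above 98.8% of protein-coding genes, ALCAM above 96.5% and CD44 above 94.5%. NT5E lay above 80.7%, at 33.2 ± 4.86 TPM in leptin cells and 54.7 ± 4.02 TPM in controls.

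The 4 genes below these were far lower. ROR1 stood at 5.36 ± 1.195 TPM with leptin and 5.57 ± 0.769 TPM in controls, near the middle of protein-coding genes (above 49.9% of them). KIT stood at 2.62 ± 1.76 TPM with leptin and 1.84 ± 0.286 TPM in controls, and ENG at 2.63 ± 0.511 TPM with leptin and 1.73 ± 0.0558 TPM in controls. THY1 stood at 0.831 ± 0.0283 TPM with leptin and 0.445 ± 0.0705 TPM in controls. In both groups the ranges of neighbours in the order of means did not overlap, except for KIT and ENG, which changed places between the groups. In leptin replicate 1, KIT reached 4.62 TPM and thereby passed the lowest leptin value of ROR1, 4.22 TPM in the same library.

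**Figure D1:**
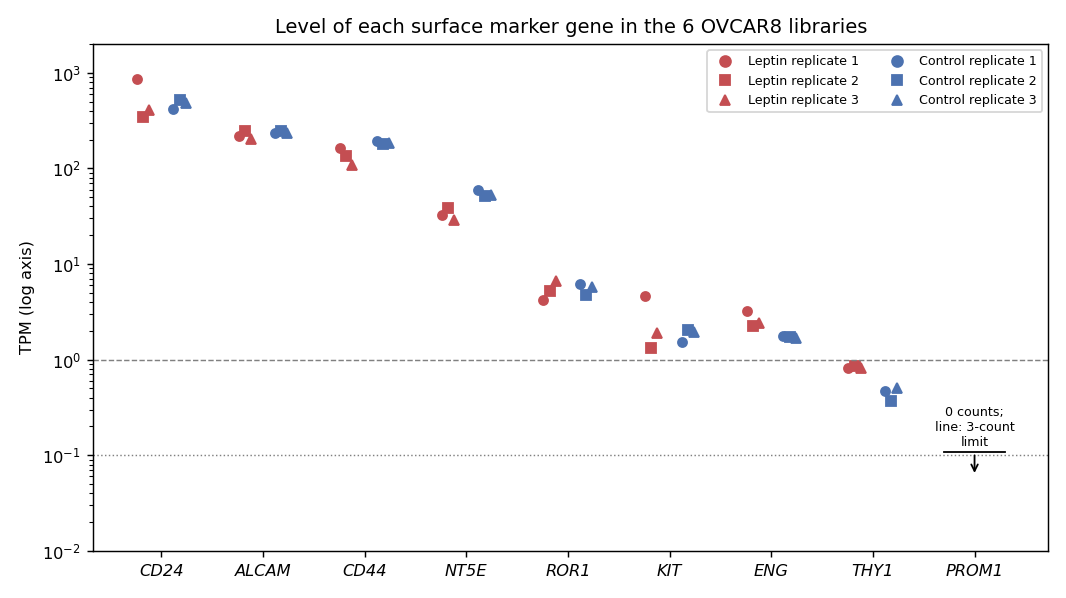
TPM of the 9 surface marker genes on a log axis, 1 point per library, with leptin left of control and the replicate shown by the symbol. CD24, ALCAM and CD44 lie above 100 TPM in every library, THY1 lies below the dashed line at 1 TPM, and PROM1 had 0 counts, with the highest per-library limit of 3 counts drawn at 0.109 TPM near the dotted line at 0.1 TPM.

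The transcript of NT5E was lower with leptin. It was the 1 of 8 tested members that passed edgeR's test at an adjusted p under 0.05, where 9.81% of all tested genes passed in either direction and 4.09% as lower. At an adjusted p of 0.01, which NT5E also met, these shares were 1.75% and 0.803%. NT5E stood at 36.6, 43.0 and 34.1 CPM in leptin replicates 1, 2 and 3, and at 66.1, 57.7 and 58.1 CPM in the controls. Every leptin library lay below every control, and leptin replicate 1 lay between the other leptin libraries. The means were 37.9 ± 4.55 CPM with leptin and 60.6 ± 4.71 CPM in controls (SD, n = 3 each), a fold of 0.625. This is a log2 fold change of -0.68 ± 0.12 (SE, 95% interval -0.94 to -0.41; edgeR adjusted p = 0.00952). Without leptin replicate 1 it was -0.66 (edgeR adjusted p = 0.000623) and with the GC trend removed -0.57 (edgeR adjusted p = 0.0198). NT5E did not pass without leptin replicate 3 (edgeR adjusted p = 0.0516), without Control replicate 1 (0.0826) or without Control replicate 3 (0.0588), where its log2 fold change was -0.61, -0.61 and -0.71. Over all genes 268, 115 and 170 passed in the same order of leave-outs, against 1538 with all libraries. NT5E (ENSG00000135318.12) lies on chromosome 6 at 85449584 to 85495791 on the plus strand of hg38, with 10 exon blocks that overlap no other annotated gene.

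CD44 was also lower in every leptin library, but the difference did not pass over all genes. It stood at 400.0, 330.4 and 284 CPM in leptin replicates 1, 2 and 3, and at 480.3, 441 and 449.8 CPM in controls. Leptin replicate 1 was the leptin library nearest to the controls. For CD44 the log2 fold change was -0.43 ± 0.14 (95% interval -0.73 to -0.14; edgeR adjusted p = 0.0656). It was -0.58 ± 0.10 when leptin replicate 1 was left out, and then passed (edgeR adjusted p = 0.000430); in that comparison 29.6% of all tested genes passed and 13.5% did so as lower. CD44 passed in none of the other 5 leave-outs of a single library, in which 115 to 788 of all genes passed. DESeq2 gave an adjusted p of 0.0228, and edgeR with no filter on low counts gave 0.0139. These were the 2 of 9 other settings in which CD44 passed. Removing the GC trend brought CD44 to -0.33 ± 0.12, at an adjusted p of 0.136 in edgeR, and limma-voom gave 0.0609. The counts are per gene, so the standard and variant exon forms of CD44 (ENSG00000026508.21, chromosome 11, 35138882 to 35232402, plus strand) were not told apart. Antisense genes share 154 of its 9992 exon bases.

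**Figure D2:**
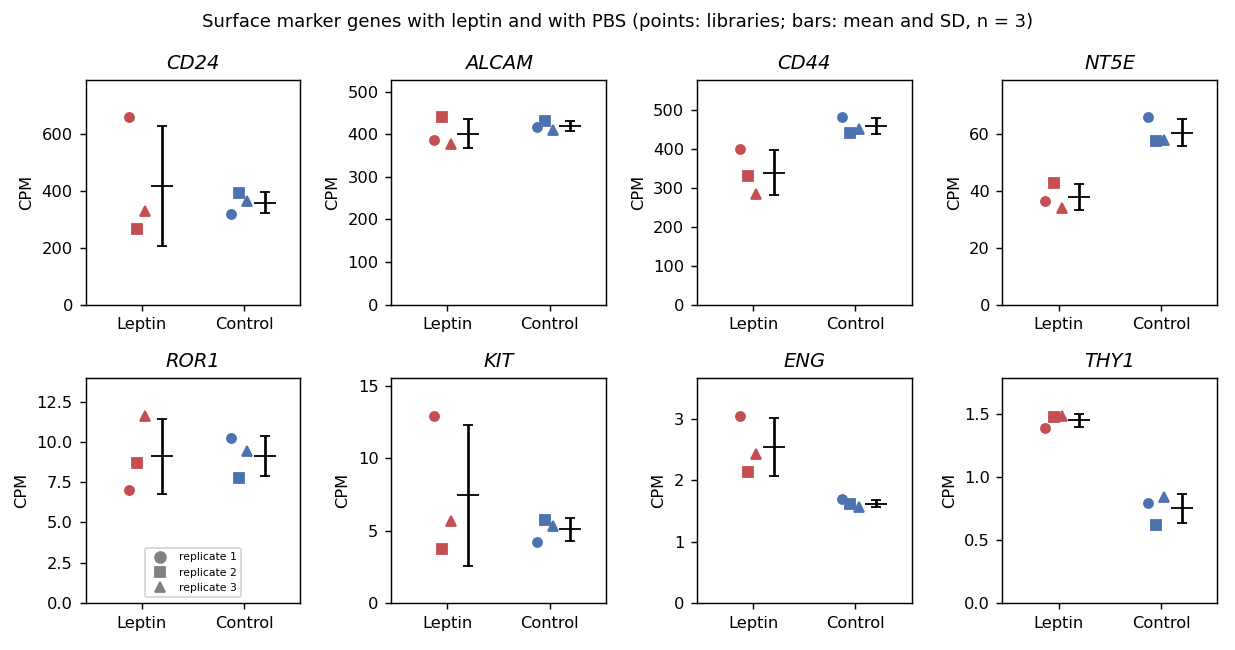
CPM of the 8 tested genes in each library (symbols) with the mean and SD of each group (bars, n = 3), on axes that start at 0 and differ between genes, leptin left of control. NT5E and CD44 lie lower in all leptin libraries, ENG and THY1 lie higher in all of them, and leptin replicate 1 lies far above the other libraries for CD24 and KIT.

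CD24, a small GPI-anchored sialoglycoprotein and a ligand of SIGLEC10, gave opposite shifts within the leptin group. It stood at 658, 264 and 328 CPM in leptin replicates 1, 2 and 3, and at 318, 393 and 364 CPM in controls. Leptin replicate 1 lay above all controls, leptin replicate 2 below all of them and leptin replicate 3 among them. For CD24 the log2 fold change was 0.22 ± 0.30 (95% interval -0.46 to 0.90; edgeR adjusted p = 0.683). It was -0.28 ± 0.12 when leptin replicate 1 was left out (edgeR adjusted p = 0.0772), so its direction rests on that library. Read pairs that map to more than 1 place were not counted, and CD24 has processed pseudogene copies. Of the 100-base stretches in its longest GENCODE 29 transcript, 0.704% also occur in the transcript of another gene, the copy CD24P4, which had 243 counts over all 6 libraries against 20895 for CD24 with leptin and 18423 in controls. CD24 (ENSG00000272398.6) lies on chromosome 6 at 106969831 to 106975627, minus strand.

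KIT, the receptor for stem cell factor, followed the same pattern at a level far below. It stood at 13.0, 3.74 and 5.64 CPM in leptin replicates 1, 2 and 3, from 225, 56 and 95 counts. The controls stood at 4.22, 5.71 and 5.34 CPM, from 80, 92 and 89 counts. Again leptin replicate 1 was the highest of the 6 libraries and leptin replicate 2 the lowest. The log2 fold change of 0.56 ± 0.38 (95% interval -0.28 to 1.40; edgeR adjusted p = 0.376) became -0.12 ± 0.25 without leptin replicate 1 (edgeR adjusted p = 0.766). Across the 6 libraries, which include both groups, Pearson's r between log2 CPM of KIT and CD24 was 0.98, as a description in which leptin replicate 1 is the extreme point of both. The SD of log2 CPM among leptin libraries was 0.90 for KIT and 0.69 for CD24, larger than for 96.8% and 92.4% of tested genes, while among controls it was 0.22 and 0.15.

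THY1 and ENG, both markers of mesenchymal stromal cells, lay higher in every leptin library from few counts, and neither passed the test. NT5E, also such a marker, went the other way (log2 fold change -0.68, edgeR adjusted p = 0.00952). ALCAM, commonly found with them, showed no detected difference (-0.06, edgeR adjusted p = 0.751). THY1 had 24, 22 and 25 counts in leptin replicates 1, 2 and 3 and 15, 10 and 14 counts in controls. These gave 1.38, 1.47 and 1.48 CPM with leptin and 0.791, 0.621 and 0.840 CPM in controls, so the groups did not overlap. For THY1 the log2 fold change was 0.94 ± 0.37 (95% interval 0.11 to 1.76; edgeR adjusted p = 0.132). It lay between 0.82 and 1.02 over the 6 leave-outs and did not pass in any of them. Of its 6900 exon bases, 864 are shared with antisense genes. Reads were counted without strand and without an option for multi-overlap, so read pairs lying within the shared bases were counted for neither gene. Antisense reads on its other exon bases could not be told apart from sense reads. One of these genes, USP2-AS1, had 212 counts over the 6 libraries, which are separate from the 71 counts of THY1 with leptin and 39 in controls. THY1 (ENSG00000154096.14) lies on chromosome 11 at 119415476 to 119424985, minus strand.

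ENG had 53, 32 and 41 counts in leptin replicates 1, 2 and 3 and 32, 26 and 26 counts in controls. In CPM these were 3.06, 2.14 and 2.43 with leptin and 1.69, 1.62 and 1.56 in controls, again without overlap. For ENG the log2 fold change was 0.65 ± 0.30 (95% interval 0.00061 to 1.30; edgeR adjusted p = 0.1805). With the GC trend removed it was 0.34 ± 0.31 (edgeR adjusted p = 0.549), and ENG, with a GC content of 63.3%, belongs to the 3050 most GC-rich genes. Antisense transcription is annotated over 313 of its 3840 exon bases, by a gene with 180 counts over the 6 libraries. ENG (ENSG00000106991.14) lies on chromosome 9 at 127815013 to 127854658, minus strand.

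ROR1, a receptor for WNT5A, and ALCAM, a homophilic adhesion molecule that also binds CD6, showed no difference that the test could detect. ROR1 stood at 7.03, 8.69 and 11.6 CPM in leptin replicates 1, 2 and 3 and at 10.2, 7.76 and 9.42 CPM in controls. Its leptin libraries lay below, among and above the controls. The log2 fold change was 0.00 ± 0.21 (95% interval -0.46 to 0.45; edgeR adjusted p = 0.994). ALCAM stood at 386, 439.9 and 378 CPM with leptin and at 417, 432 and 409 CPM in controls. Leptin replicate 2 was the highest library and the other leptin libraries were the lowest. Its log2 fold change was -0.06 ± 0.11 (95% interval -0.31 to 0.18; edgeR adjusted p = 0.751), the narrowest interval of the 8. ROR1 (ENSG00000185483.13) lies on chromosome 1 at 63774017 to 64181498 and ALCAM (ENSG00000170017.12) on chromosome 3 at 105366909 to 105576900, both on the plus strand.

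PROM1 had 0 counts in all 3 leptin and all 3 control libraries. With 3 counts as the limit of a count of 0, its level was under 0.0911 to 0.109 TPM in leptin libraries and under 0.0863 to 0.102 TPM in controls. These limits cover counting error only. PROM1 (ENSG00000007062.12) lies on chromosome 4 at 15963076 to 16084378, minus strand, with 44 exon blocks, and 166 of its 7457 exon bases are shared with FGFBP2. None of the 100-base stretches of its longest transcript occur in the transcript of another gene. Its paralogue PROM2 was expressed, at 21.2 ± 3.6 CPM with leptin and 19.3 ± 3.0 CPM in controls (log2 fold change 0.13, edgeR adjusted p = 0.642).

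Seen together, 1 of the 8 tested members passed as lower, 0 passed as higher in edgeR and 7 did not pass. At an unadjusted p under 0.05 in edgeR there were 4 members, NT5E, CD44, THY1 and ENG, where 27.6% of all tested genes had such a p. THY1 and ENG were the higher ones, and DESeq2 and limma-voom also called 0 members higher. The same 4 members had groups that did not overlap, which was so for 32.2% of tested genes, 16% with leptin above and 16.2% with leptin below. The median log2 fold change of the 8 tested members was 0.11, with 4 positive, against a median of 0.0057 over all tested genes. The ratio of CD44 to CD24, per length, was 0.188, 0.387 and 0.269 in leptin replicates 1, 2 and 3 and 0.468, 0.348 and 0.383 in controls, so the groups overlapped. The ratios of NT5E to CD44 and of ALCAM to CD44 overlapped as well: NT5E to CD44 was 0.202 to 0.287 with leptin and 0.285 to 0.303 in controls, and ALCAM to CD44 was 1.34 to 1.85 with leptin and 1.21 to 1.36 in controls. Of the 4 ratios computed, NT5E to ENG alone did not overlap, at 10.1, 17.0 and 11.9 with leptin and 33.2, 30.3 and 31.5 in controls. That outcome was fixed, since every leptin library lay below every control for NT5E and above every control for ENG. The 4 pairs were chosen after values were seen.

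**Figure D3:**
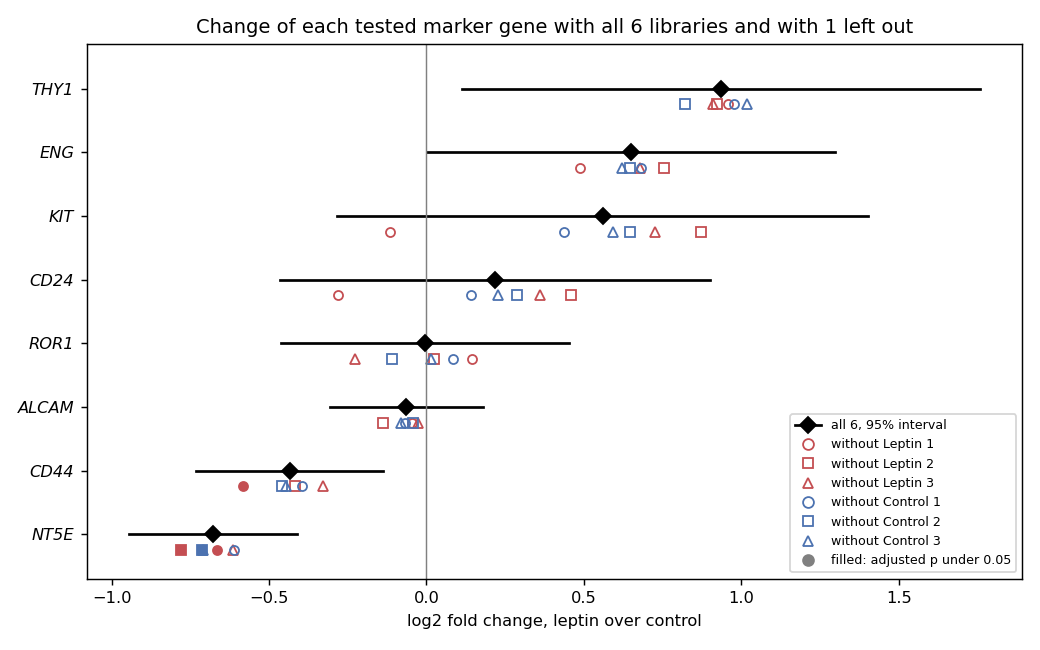
Log2 fold change of leptin over control for the 8 tested genes: diamonds and lines give the value and 95% interval from all 6 libraries, and the smaller symbols give the value with 1 library left out, filled where the adjusted p was under 0.05. NT5E stays between -0.78 and -0.61 in all 6 leave-outs and is filled in 3, CD44 is filled without leptin replicate 1, and CD24 and KIT change sign without leptin replicate 1.

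The partners of these proteins were described from 11 lists with 162 genes, of which 118 were tested and 15 passed. That is 12.7% of them, beside 9.81% of all tested genes. With leptin replicate 1 left out 46 of 118 passed (39.0%), beside 29.6% of all tested genes. Each other leave-out of 1 library gave 3 to 9, with 3 when Control replicate 1 was left out. Over all genes these leave-outs gave 115 to 788, with 115 when Control replicate 1 was left out. Split by direction, the shares of all tested genes were 5.71% higher and 4.09% lower with all libraries and 16% higher and 13.5% lower without leptin replicate 1. With all libraries DESeq2 called 1353 of all genes higher and 897 lower, and limma-voom 700 and 616, against 896 and 642 in edgeR. Around CD44, 2 of 17 tested genes fell and 0 rose in edgeR, DESeq2 or limma-voom, nor at an unadjusted p under 0.05 (median log2 fold change -0.15). HMMR, another hyaluronan-binding protein, fell to 12.6 ± 4.4 CPM with leptin, against 28.3 ± 2.6 CPM in controls (log2 fold change -1.17, edgeR adjusted p = 0.00953). MSN, which encodes moesin, a linker of CD44 to actin, fell to 667 ± 148 CPM, against 1018 ± 10.6 CPM in controls (log2 fold change -0.61, edgeR adjusted p = 0.0320). Without leptin replicate 1, 6 genes of this list fell, HMMR, MSN, CEMIP2, EZR, HAS3 and VCAN, and HYAL3 rose. HMMR passed in 3 of 6 leave-outs and MSN in 1, with edgeR adjusted p of 0.0717 and 0.148 without Control replicate 1. The ligand SPP1 stood at 210.1 ± 42.4 CPM with leptin and 192 ± 9.16 CPM in controls and did not pass (edgeR adjusted p = 0.594).

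Around NT5E, 0 of 11 tested genes of the adenosine pathway passed in edgeR or limma-voom, while 5 had an unadjusted p under 0.05 and DESeq2 called 1, ADORA1. Over all tested genes 27.6% had an unadjusted p under 0.05 in edgeR. With the GC trend removed SLC29A1, a nucleoside transporter gene, fell (log2 fold change -0.40, edgeR adjusted p = 0.0380). With leptin replicate 1 left out, 3 of the 11 passed in edgeR: ADORA2B, an adenosine receptor gene, as higher (log2 fold change 0.80, edgeR adjusted p = 0.00740), and SLC29A1 (-0.34, 0.0151) and ENPP1 (-0.46, 0.0378) as lower. Of all tested genes 29.6% passed in that setting. In each other leave-out of 1 library 0 of the 11 passed, where 115 to 788 of all genes did. With all libraries ENPP1, which makes AMP from ATP, stood at 12.1 ± 1.4 CPM with leptin and 16.4 ± 1.3 CPM in controls (log2 fold change -0.44, edgeR adjusted p = 0.0824). ADORA1, another receptor gene, stood at 4.08 ± 0.60 CPM with leptin and 2.004 ± 0.93 CPM in controls (log2 fold change 1.02, edgeR adjusted p = 0.0860). ENTPD1 (CD39), which feeds NT5E by hydrolysing ATP and ADP, stood at 0.702 TPM with leptin and 0.674 TPM in controls. The genes of this list were named after their values were seen.

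Around ROR1, 3 of 15 tested genes rose in edgeR, beside 5 in DESeq2 and 2 in limma-voom (median log2 fold change 0.31). With all libraries 0 fell in these tools, with 1 lower at an unadjusted p under 0.05. In edgeR 7 rose when leptin replicate 1 was left out and 2 fell, CAV1 (log2 fold change -0.52, edgeR adjusted p = 0.000765) and VANGL1 (-0.33, 0.0158). DVL2, an adaptor of WNT signalling, rose to 119 ± 14.4 CPM with leptin, against 82.7 ± 5.1 CPM in controls (edgeR adjusted p = 0.0215). The planar polarity genes PRICKLE1 and VANGL2 rose to 15.9 ± 2.3 and 4.48 ± 1.6 CPM with leptin, against 10.5 ± 0.76 and 1.91 ± 0.53 CPM in controls (edgeR adjusted p = 0.0380 and 0.0434). These calls did not hold in most leave-outs: DVL2 passed in 2 of 6 leave-outs and PRICKLE1 and VANGL2 in 1 each, with highest adjusted p of 0.143, 0.173 and 0.152 in edgeR without Control replicates 1, 3 and 2 in that order. With the GC trend removed PRICKLE1 alone of the 3 passed (edgeR adjusted p = 0.0331). The ligand gene WNT5A stood at 18.6 ± 2.0 CPM with leptin and 19.5 ± 2.4 CPM in controls (edgeR adjusted p = 0.811).

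Of 13 tested genes of KIT signalling, the ligand gene KITLG fell, to 18.5 ± 1.3 CPM with leptin against 25.4 ± 1.4 CPM in controls (log2 fold change -0.45, edgeR adjusted p = 0.0420). In edgeR 0 rose, with 1 higher at an unadjusted p under 0.05 and 1, SRC, called higher by DESeq2. SRC rose when leptin replicate 1 was left out (log2 fold change 0.41, edgeR adjusted p = 0.00623) and 3 genes fell, KITLG, LYN and PTPN6. Of all tested genes 29.6% passed in that setting. With any other single library left out 0 of the 13 passed, where 115 to 788 of all genes did. KITLG passed in 1 of 6 leave-outs (highest edgeR adjusted p 0.199, without Control replicate 1) and not with the GC trend removed (edgeR adjusted p = 0.176). Of 13 tested genes of the endoglin receptor complex 0 passed in edgeR or limma-voom, while 3 had an unadjusted p under 0.05 and DESeq2 called 2 higher, SMAD9 and TGFB1. Over all tested genes 27.6% had such an unadjusted p in edgeR. SMAD9 rose with the GC trend removed (log2 fold change 0.79, edgeR adjusted p = 0.0364). Without leptin replicate 1, where 29.6% of all tested genes passed, SMAD9 and TGFB1 rose and the BMP target genes ID1 and ID3 fell. In each other leave-out of 1 library 0 of these 13 passed, where again 115 to 788 of all genes did. Among ligands of CD24, THY1 and ALCAM and genes of GPI anchoring, 2 of 10 tested genes rose and 0 fell in edgeR, with 1 lower at an unadjusted p under 0.05 and 1 called lower by DESeq2, LYN. With leptin replicate 1 left out 2 rose and 2 fell, LYN (log2 fold change -0.37, edgeR adjusted p = 0.0165) and PIGK (-0.41, 0.0482). FYN, a kinase found with GPI-anchored proteins such as THY1, rose to 55.9 ± 6.4 CPM with leptin, against 34.2 ± 1.3 CPM in controls (log2 fold change 0.71, edgeR adjusted p = 0.00712), and passed in 4 of 6 leave-outs, not without Control replicate 1 (0.0604) or 3. L1CAM rose as well and is given below. Immune and endothelial partners of CD24 and ALCAM were near 0: SIGLEC10 stood at 0.333 TPM with leptin and 0.264 TPM in controls, CD6 at 0.0904 TPM with leptin and 0 counts in controls, and SELP had 0 counts in both.

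Of 19 tested genes among other surface markers of stem-like cancer cells, 3 rose and 1 fell (median log2 fold change 0.13). DESeq2 and limma-voom called 3 higher and 2 lower, with ITGB1 added as lower. In edgeR 4 rose when leptin replicate 1 was left out, CD151 added, and 3 fell, CD55, ITGB1 (log2 fold change -0.56, edgeR adjusted p = 0.000341) and CD47. MCAM (CD146), an adhesion molecule of vessel and stromal cells, rose to 18.2 ± 1.9 CPM with leptin, against 8.12 ± 1.0 CPM in controls. Its log2 fold change of 1.16 ± 0.16 (edgeR adjusted p = 0.00356) passed in all 6 leave-outs and with the GC trend removed. CD55, a complement regulator, fell to 22.3 ± 0.83 CPM with leptin, against 35.9 ± 3.4 CPM in controls (log2 fold change -0.69, edgeR adjusted p = 0.00871), and passed in 4 of 6 leave-outs, not without Control replicate 1 (0.0740) or 2. L1CAM, a neural adhesion molecule, rose to 432 ± 87 CPM with leptin, against 292 ± 17 CPM in controls (log2 fold change 0.57, edgeR adjusted p = 0.0370). FZD7, a WNT receptor gene named after its values were seen, rose to 87.3 ± 8.52 CPM with leptin, against 65.5 ± 2.47 CPM in controls (edgeR adjusted p = 0.0395). It passed in 1 of 6 leave-outs (highest edgeR adjusted p 0.195, without Control replicate 3) and not with the GC trend removed (0.0616). L1CAM passed in 1 of 6 leave-outs (highest edgeR adjusted p 0.190, without Control replicate 1) and not with the GC trend removed (edgeR adjusted p = 0.147).

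**Figure D4:**
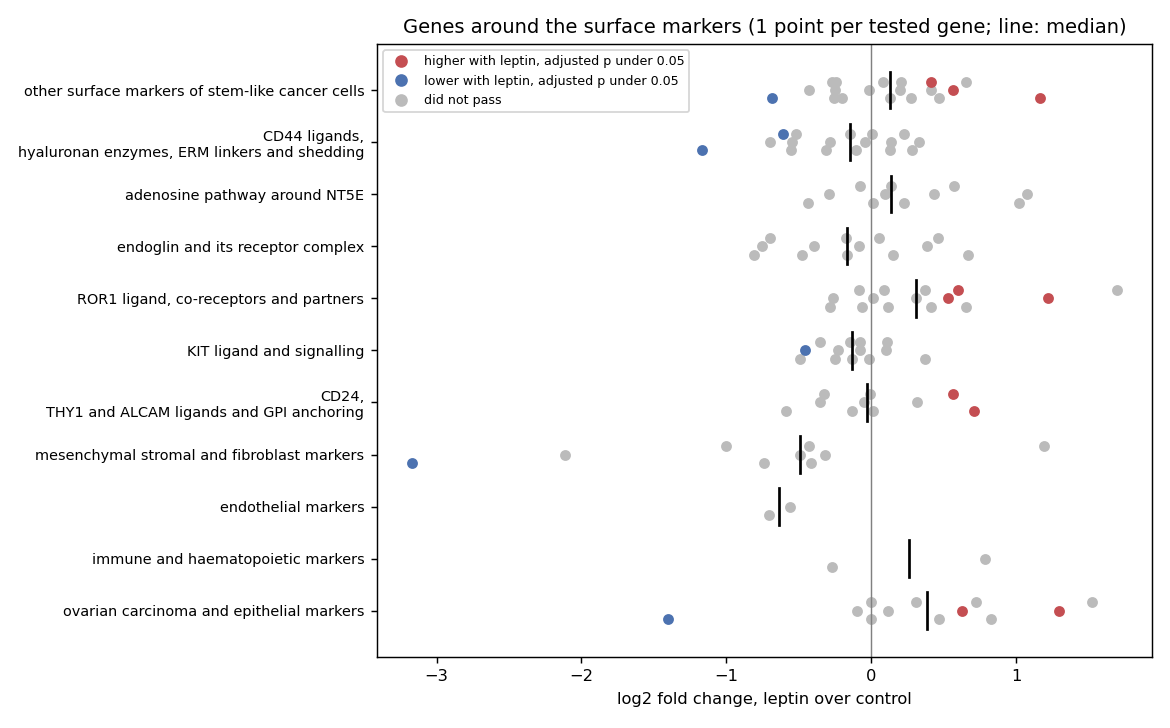
Log2 fold change of leptin over control for each tested gene of the 11 lists, with the median of each list as a line and genes past an adjusted p of 0.05 in colour. Most points are grey and lie on both sides of 0, MCAM is the rightmost coloured point of the top list, and POSTN, at -3.17, is the lowest of all.

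The markers of ovarian carcinoma cells were present in part. Of 14 ovarian carcinoma and epithelial markers 12 were tested, and PAX8, a transcription factor of Mullerian epithelium, stood at 363.9 ± 5.5 CPM with leptin and 364.5 ± 8.8 CPM in controls. MUC16 was near 0, at 0.138 CPM with leptin and 0.159 CPM in controls, from 7 and 8 counts in all; it encodes the serum marker CA-125. MSLN and CDH1, which encode mesothelin and E-cadherin, were also low, at 0.599 and 0.475 TPM with leptin and 0.507 and 0.166 TPM in controls. KRT8 was the marker with the highest level, at 1340 TPM with leptin and 1272 TPM in controls. KRT19 fell to 38.7 ± 0.97 CPM with leptin, against 102 ± 9.6 CPM in controls (edgeR adjusted p = 0.000139), while CLDN3 and FOLR1 rose, to 4.25 ± 0.28 and 68.8 ± 8.1 CPM, against 1.72 ± 0.14 and 44.6 ± 7.8 CPM in controls (edgeR adjusted p = 0.0128 and 0.0234). KRT19 passed in all 6 leave-outs, and CLDN3 and FOLR1 in 2 each, with highest edgeR adjusted p of 0.0833 without Control replicate 3 and 0.141 without Control replicate 1. With the GC trend removed CLDN3 did not pass (0.107). KRT7, a keratin gene, rose as well when leptin replicate 1 was left out (log2 fold change 1.02, edgeR adjusted p = 1.01e-05). The summed level of the 14 markers was 2698 to 3175 TPM with leptin and 2558 to 2814 TPM in controls.

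Since THY1, ENG and NT5E are also stromal markers, the level of stromal, endothelial and immune genes was read beside them. Of 12 mesenchymal stromal and fibroblast markers 9 were tested, and 1, POSTN, fell. In edgeR, DESeq2 and limma-voom 0 rose, with 1 higher at an unadjusted p under 0.05. Their summed level was 1345 to 3805 TPM with leptin and 3700 to 4037 TPM in controls, most of it from S100A4, at 2111 ± 1282 TPM with leptin and 3621 ± 127 TPM in controls, a gene that carcinoma cells also express. POSTN fell to 0.639 ± 0.21 CPM with leptin, against 5.75 ± 1.0 CPM in controls (edgeR adjusted p = 0.00109), in all 6 leave-outs as well. With leptin replicate 1 left out, 6 of the 9 tested stromal markers fell, S100A4, COL1A1, COL1A2, LUM, DCN and POSTN, where 13.5% of all tested genes fell. In every other leave-out of 1 library, where 115 to 788 of all genes passed, POSTN alone of the 9 did. S100A4 reached an adjusted p of 0.422 in edgeR without leptin replicate 3. The part of these shifts in the values of THY1, ENG and NT5E was not tested. COL1A1, a collagen gene of fibroblasts, was also high, at 186 ± 38.9 TPM with leptin and 256 ± 46.1 TPM in controls (edgeR adjusted p = 0.130). POSTN and LUM stood next in controls, at 0.463 and 1.46 TPM with leptin and 4.30 and 3.07 TPM in controls. PDGFRA and DCN, which are also used to define fibroblasts, were at 0.0485 and 0.0737 TPM with leptin and 0.102 and 0.337 TPM in controls, and FAP and VCAM1 had 0 counts with leptin and 19 and 4 in controls. PDGFRB, named after its values were seen, was the 1 stromal marker higher at an unadjusted p under 0.05. It stood at 2.07 ± 0.62 CPM with leptin and 0.900 ± 0.15 CPM in controls, with every leptin library above every control. For PDGFRB edgeR gave a log2 fold change of 1.19 and an adjusted p of 0.0684. Of 10 endothelial markers 6 were under 0.1 TPM on average, and their sum was 1.56 to 2.96 TPM with leptin and 2.45 to 3.98 TPM in controls, with KDR the highest, at 1.19 TPM with leptin and 2.01 TPM in controls. Of 12 immune and haematopoietic markers 6 had no count, PTPRC, CD3E and CD3D among them. CSF1R was the highest, at 2.82 TPM with leptin and 1.68 TPM in controls, and neither it (edgeR adjusted p = 0.130) nor KDR (0.134) passed, though both had an unadjusted p under 0.05.

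The genes most like each member were found by the Pearson correlation of log2 CPM over the 6 libraries, among 12336 protein-coding genes with a mean of at least 1 CPM. With 6 points and 2 groups very high values arise for many genes, so these are descriptions. NT5E was closest to FKBP5 (r = 0.997) and NCEH1 (0.995). FKBP5 stood at 6.63, 7.88 and 5.94 CPM in leptin replicates 1, 2 and 3 and at 12.7, 10.6 and 11.4 CPM in controls, and NCEH1 at 32.3, 36.8 and 29.1 CPM with leptin and 65.2, 51.9 and 56.0 CPM in controls. CD44 was closest to KIF15 and SLC5A3, THY1 to LMX1B and CYP2S1, and ENG to B3GNT4 and TMEM120A. CD24 was closest to MAGED2 and TRIM6, and KIT to SMAD6 and MAGED2. MAGED2 thus stood near both CD24 and KIT: it had 185 CPM in leptin replicate 1 and lay between 122 and 145 CPM in the other 5 libraries. ROR1 was closest to PSMA7 and PPP2CB, and ALCAM to TBC1D1 and ZNF148.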

How the data were processed

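RNA was sequenced from 3 leptin and 3 control libraries of OVCAR8 cells. The authors deposited raw fragment counts per gene and a gene length, which is the number of exon bases, 1 table per library. Per the file headers, featureCounts 2.0.1 assigned read pairs to the exons of GENCODE release 44 genes, without a strand option and without options for multi-mapping or multi-overlap. Per the submitters' processing notes the tools were HISAT2 2.0.5, featureCounts 1.5.0-p3 and DESeq2 with hg38; the 2 featureCounts versions differ. Per the labels' protocols the library kit was directional and reads were paired. Totals lay between 15609425 and 18577775 counts. Same-group libraries differed by more than sampling noise (mean chi-square per gene at least 5.30), so none was a copy of another. Each was counted as 1 sample, although this does not tell separate cultures from technical repeats. Columns of per-sample values beyond these numbered 0.

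The groups were compared with edgeR 4.0.16 in R 4.3.3 on all genes: filterByExpr (minimum count 10, minimum total 15), TMM, robust quasi-likelihood, no replicate block, Benjamini-Hochberg adjustment at 0.05 over 15685 genes. Of the 9 members 8 passed the filter. CPM used TMM-scaled totals. TPM used counts and the deposited lengths. Standard errors and 95% intervals come from the F statistic. The fit was tested on simulated data with the same spread in both groups, no outlying library and no GC trend. That run checked the computation only, since the data differ in these respects. Alternatives were DESeq2 1.42.0, limma-voom (limma 3.58.1), other scalings and filters, a replicate block, subtracting a GC trend per library (lowess, span 0.3, GENCODE 29 transcripts, known for 97.2% of tested genes) and leaving out each library. The same leave-outs and GC removal for the lists were chosen after seeing the data, as were the counts by other tools per list. Replicate numbers did not pair libraries.

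Members and lists were chosen with earlier results of these data known. Named genes were the members, in each list the called genes with the lowest adjusted p, at most 3, the highest marker gene of each other cell type and the 2 genes most like each member; a few others are named as chosen after seeing values or as ligands or defining markers.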

Additional observations from a re-analysis of the deposited data

How the results depend on the processing

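The count of 1538 changed genes became 2437 with no filter on low counts, 2250 in DESeq2 and 1316 in limma-voom. It became 873 with the GC trend removed and 274 at an adjusted p under 0.01, and leaving out single libraries gave 115 to 4761. The count of 1 changed member became 2, with CD44 added, under DESeq2, with no filter on low counts and without leptin replicate 1, and it ranged from 0 to 2 over the leave-outs. NT5E passed in 9 of 9 other settings and in 3 of 6 leave-outs. Against 15 called genes in the lists, the leave-outs gave 3 to 46 and DESeq2 gave 23. With the limits set on CPM, 0 members were low, since THY1 then counted as expressed. Without leptin replicate 1 the log2 fold change turned for CD24 (-0.28), KIT (-0.12) and ROR1 (0.14), and over the leave-outs it ranged from -0.28 to 0.46 for CD24, from -0.12 to 0.87 for KIT and from -0.23 to 0.14 for ROR1. With the GC trend removed it turned for ROR1 (0.12) and ALCAM (0.083). None of these passed the threshold. The cause was not tested.

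Replicate numbers were not treated as pairs: correlations of deviations between same-numbered leptin and control libraries were -0.05, 0.01 and -0.11. With the replicate block 1303 genes and 1 member passed, and the NT5E log2 fold change was -0.68 (edgeR adjusted p = 0.0123). With the total counts as the scale 736 of 1504 called genes were higher, against 896 of 1538. THY1 and ENG rest on 10 to 53 counts per library, which limits what can be called for them.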
